A study of Homo sapiens with 13 samples.

Results

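The 9 genes described here code for enzymes that make or recycle NADPH, or that carry carbon through the pentose phosphate pathway: PGD, TKT, TALDO1, IDH1, IDH2, ME2, NNT, MTHFD1 and MTHFD2. They were taken by name, and every non-control probe that the array design assigns to one of them was used, which gave 10 probes of the 34127 on the array. RNA came from CCRF-CEM, a line grown from a human acute lymphoblastic leukemia of the T lineage, either parental (CEM PA) or as a subline selected by stepwise exposure to FK866 (CEM RES). Cells of both lines received 5 nM FK866, an inhibitor of the NAD salvage enzyme NAMPT, or DMSO alone (mock) for 48 h. The 4 groups held 3 mock and 2 FK866 arrays of CEM PA and 4 mock and 4 FK866 arrays of CEM RES, 13 in all, each a biological replicate according to the submitters. CEM RES is 1 subline, resistant to 100 nM FK866 and kept in that concentration during culture, so its mock cells are not drug-naive, and the 5 nM dose lies below the concentration they grew in. In RNA from whole cultures, a lower share of cells expressing a gene and less of its mRNA per cell cannot be told apart.

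NADPH supplies the electrons for fatty acid and nucleotide synthesis and for keeping glutathione and thioredoxin reduced, and the cell makes it by phosphorylating NAD to NADP and reducing it. The oxidative branch of the pentose phosphate pathway reduces NADP in the cytosol, and its non-oxidative branch interconverts sugar phosphates and ribose 5-phosphate, the sugar of nucleotides. Isocitrate dehydrogenases, malic enzymes, the mitochondrial transhydrogenase and the folate-dependent dehydrogenases are the other main sources. Because FK866 blocks the salvage route to NAD, the precursor of NADP, these enzymes are of interest in cells that grow with the drug.

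The array is a 1-colour design with probes of 60 bases, and its positions refer to hg19. The probes of PGD, TKT, IDH2 and ME2 are printed because TKT, IDH2 and ME2 separate the lines and PGD makes NADPH in the oxidative branch. These 4 were taken to lie in the coding part of their messages, which was not checked against an annotation. The first 3 hold a reading frame without a stop codon, and in the ME2 probe a frame ends in one. An open frame of this length does not show coding sequence, and the probes of IDH1, MTHFD1, MTHFD2 and NNT hold one as well. They are given 5′ to 3′ in the sense of the transcript, and the capitals mark that stop codon.
PGD: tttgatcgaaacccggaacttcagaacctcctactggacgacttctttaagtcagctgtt
TKT: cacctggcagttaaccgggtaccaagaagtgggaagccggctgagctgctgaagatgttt
IDH2: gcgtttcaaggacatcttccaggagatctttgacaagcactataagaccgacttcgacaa
ME2: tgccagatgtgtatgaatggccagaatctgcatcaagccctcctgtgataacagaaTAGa
The PGD probe lies at chr1:10478911-10478970 and the TKT probe at chr3:53259829-53259888. The IDH2 probe covers 235 bases of the genome, chr15:90630472-90630706, and so crosses an intron, which means that it matches the spliced message in full and the unspliced one only in part. The ME2 probe lies at chr18:48473496-48473555.

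The remaining members were read by probes at chr2:209101326-209101385 for IDH1, chr11:764914-764973 for TALDO1, chr14:64926496-64926555 for MTHFD1 and chr2:74441985-74442044 for MTHFD2. MTHFD1 and MTHFD2 were each printed as 10 spots on every array. The SD between the spots of an array had a median of 0.0543 for MTHFD1 and 0.107 for MTHFD2 on the log2 scale, below the median SD between replicate arrays, which ran from 0.12 to 0.206 over the 4 groups. NNT had 2 probes. The one at chr5:43704546-43704605 was well above background on all 13 arrays. The other, at chr5:43706388-43706447, passed on 1 array only (mock CEM RES, replicate 1) and was left out of the tests, so 9 probes, 1 for each gene, entered the fit of 22754 probes. All 9 passed in every group, so none was kept for its level in 1 group alone.

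**Figure D1:**
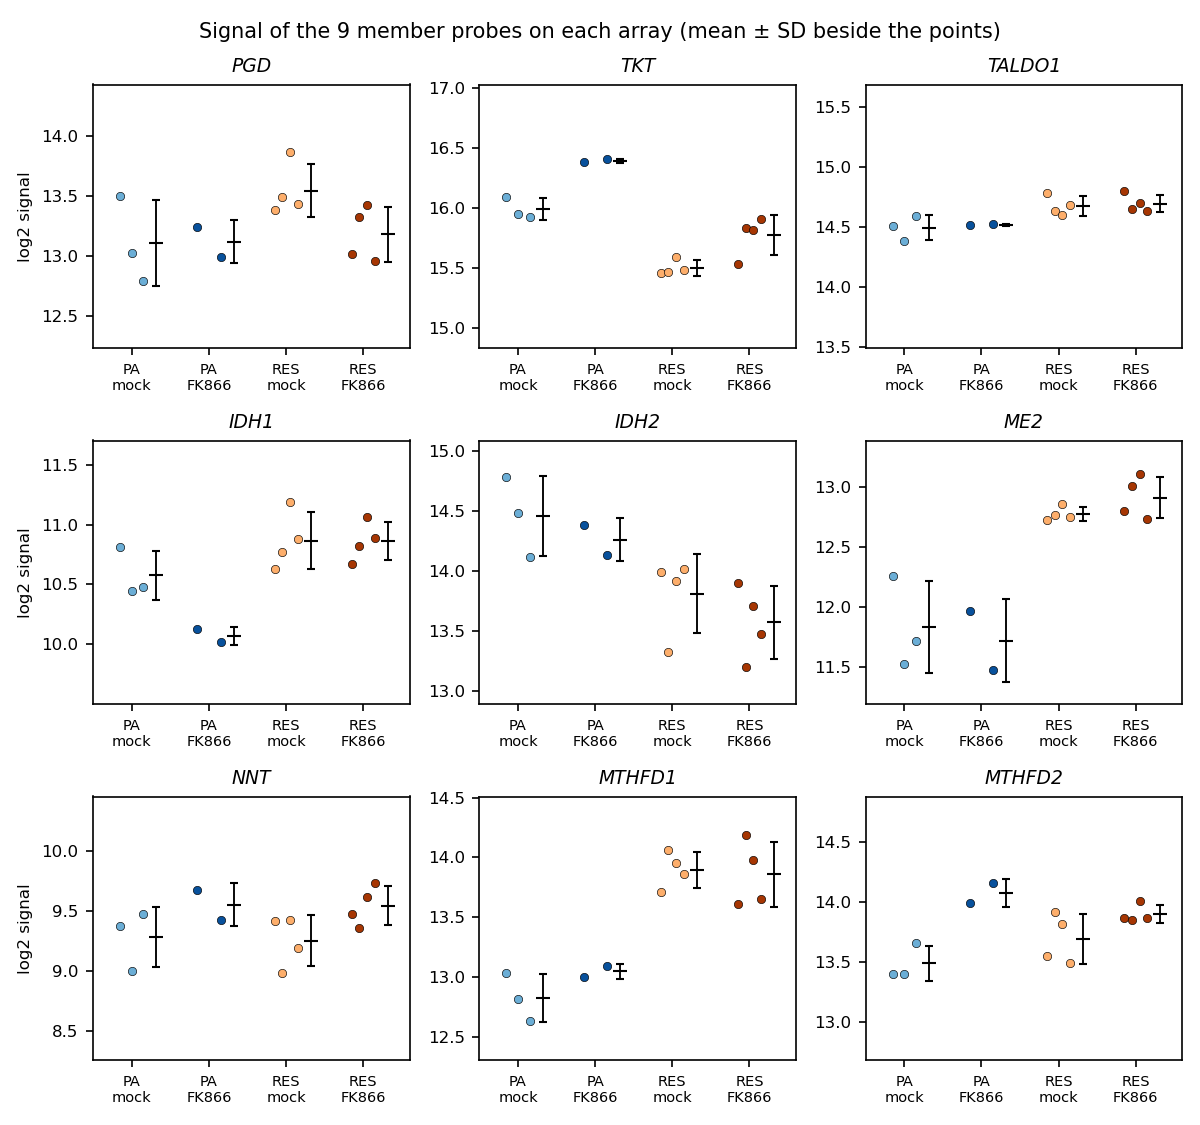
Signal of the 9 tested probes on each of the 13 arrays. The y axis is the quantile-normalized log2 signal, with the same span in every panel, points are arrays in the order of their replicate numbers, and the bar beside them is the mean ± SD. ME2 and MTHFD1 sit higher in all 8 CEM RES arrays than in any CEM PA array, and TKT and IDH2 sit lower. TALDO1 also sits higher in all CEM RES arrays, by a narrow margin (lowest 14.60, against 14.59 for the highest CEM PA array).

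On every array 26457 to 33239 of 43118 spots stood well above background and none was saturated, and replicate arrays correlated at 0.977 to 0.991. The identity of the cultures was checked on marker genes. All 10 T-lineage markers were well above background on all 13 arrays. Between the mock groups CD3E (log2 difference 1.12) and CD3G (1.20) were higher in CEM RES and CD5 (-1.96) and PTCRA (-1.24) lower, past an adjusted p of 0.05 in limma, and the other 6 did not pass. Of 9 measured markers of other cell types, 3 were as well: the B cell gene CD79A, the myeloid gene CD14 and the epithelial gene KRT8. MS4A1 was well above background on 11 arrays, KRT19 on 8, HBB on 3, CD33 and MPO on 1 each and EPCAM on no array. The 2 B cell markers MS4A1 and CD79A summed to a linear signal of 3320 to 3620 units in mock CEM PA and 2140 to 3520 in mock CEM RES. Nearly all of this sum is CD79A, with a mean log2 signal of 11.77 in CEM PA, against 4.24 for MS4A1. The summed linear signal of the 10 T-lineage markers, which moved in both directions, was 169000 to 172000 and 188000 to 200000 units. CD3D made up the largest part of it, with a mean log2 signal of 16.81 in CEM PA and 16.91 in CEM RES. Whether these differences bear on the member values was not tested. The arrays of CEM PA were scanned in 2 sessions and those of CEM RES in the third, so that line and scan session cannot be told apart.

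The comparison of the lines without drug asks how a culture adapted to FK866 differs from its parent. The malic enzyme ME2 and the folate enzyme MTHFD1 were higher in CEM RES, and the transketolase TKT and the isocitrate dehydrogenase IDH2 were lower. Of the 9 probes 4 passed an adjusted p of 0.05 in limma, 2 in each direction, where 47.6% of all probes did, 24.9% higher and 22.7% lower. The double threshold of the study, an unadjusted p under 0.05 with an absolute log2 fold change over 0.75, was passed by 2 members, both higher, against 18.4% of all probes that passed it in this direction. The arrays of the groups did not overlap in 5 of 9 members, against 48.8% of all probes. The median log2 fold change of the members was 0.21 and that of all probes 0.04. These shares lie near those of the whole array.

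MTHFD1, the cytosolic enzyme that links formate to the folate pool and oxidises methylene tetrahydrofolate with NADP, showed the largest difference. Its log2 signal was 13.03, 12.82 and 12.63 in the mock CEM PA arrays and 13.71, 14.06, 13.96 and 13.86 in those of CEM RES. Every CEM RES array lay above every CEM PA array. The difference was 1.07 on the log2 scale (SE 0.17, 95% interval 0.70 to 1.44), or 2.10-fold, with an adjusted p of 0.000346 in limma. Against the mock CEM PA array of the first scan session it was 0.87 and against those of the second 1.17.

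ME2 is a mitochondrial malic enzyme that turns malate into pyruvate, mainly with NAD in place of NADP. Its log2 signal was 12.26, 11.53 and 11.71 in mock CEM PA and 12.73, 12.77, 12.86 and 12.76 in mock CEM RES. The resistant arrays lay close together and above all parental ones, and the parental array of the first session was the nearest to them. The difference was 0.94 (SE 0.19, 95% interval 0.53 to 1.35), or 1.92-fold, with an adjusted p of 0.00156 in limma. It was 0.51 against the first session and 1.16 against the second.

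TKT is the transketolase of the non-oxidative branch and moves carbon units between sugar phosphates. Its log2 signal was 16.10, 15.95 and 15.93 in mock CEM PA and 15.46, 15.47, 15.59 and 15.48 in mock CEM RES. All 4 resistant arrays lay below the parental ones. TKT was lower by a log2 difference of -0.49 (SE 0.13), or 1.41-fold, with an adjusted p of 0.00767 in limma, but scaling the arrays by their 75th percentiles gave a difference of -0.30 and an adjusted p of 0.112. Under that scaling the median of all probes moved to 0.17, and 6372 probes were called higher and 4390 lower, against 5667 and 5168 with quantile normalization.

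IDH2, the mitochondrial isocitrate dehydrogenase that reduces NADP, had log2 signals of 14.78, 14.48 and 14.11 in mock CEM PA and 13.99, 13.32, 13.91 and 14.01 in mock CEM RES. The highest resistant array lay just below the lowest parental one, and replicate 2 of CEM RES stood well below the others. The difference was -0.65 (SE 0.23, 95% interval -1.14 to -0.15), with an adjusted p of 0.0331 in limma. It lost the threshold without mock CEM PA replicate 1 (-0.49, adjusted p = 0.142), without mock CEM PA replicate 2 (-0.64, adjusted p = 0.08) and without mock CEM RES replicate 2 (-0.49, adjusted p = 0.0842). With no filter on dim probes the adjusted p was 0.0554, and with only the 2 mock groups in the fit 0.0592.

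The 5 other members did not pass between the mock groups. PGD, which releases carbon dioxide and makes the second NADPH of the oxidative branch, had log2 signals of 13.50, 13.02 and 12.79 in mock CEM PA and 13.39, 13.49, 13.87 and 13.44 in mock CEM RES. The parental array of the first session lay inside the range of the resistant ones. The difference was 0.44 (95% interval 0.01 to 0.87, adjusted p = 0.0867 in limma), and it was 0.05 against the first session and 0.64 against the second. Without mock CEM PA replicate 1 it was 0.64 with an adjusted p of 0.0251, and with array quality weights 0.47 with an adjusted p of 0.0255. TALDO1, the transaldolase of the same branch as TKT, ranged from 14.38 to 14.59 in mock CEM PA and from 14.60 to 14.79 in mock CEM RES. Its groups did not overlap, yet the difference was 0.18 (95% interval -0.07 to 0.44, adjusted p = 0.224).

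IDH1, the cytosolic counterpart of IDH2, differed by 0.29 (95% interval -0.07 to 0.65, adjusted p = 0.169 in limma), and by 0.39 with array quality weights (adjusted p = 0.0246). NNT, the transhydrogenase of the inner mitochondrial membrane that passes electrons from NADH to NADP, differed by -0.03 (95% interval -0.40 to 0.34), and its groups overlapped. MTHFD2, the mitochondrial folate dehydrogenase, differed by 0.21 (95% interval -0.11 to 0.52, adjusted p = 0.262). By compartment, 1 of 5 cytosolic members was higher and 1 lower, and likewise 1 of 4 mitochondrial members. Both isoforms of isocitrate dehydrogenase were measured on the same arrays, with differences of opposite sign, of which the one for IDH2 passed.

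**Figure D2:**
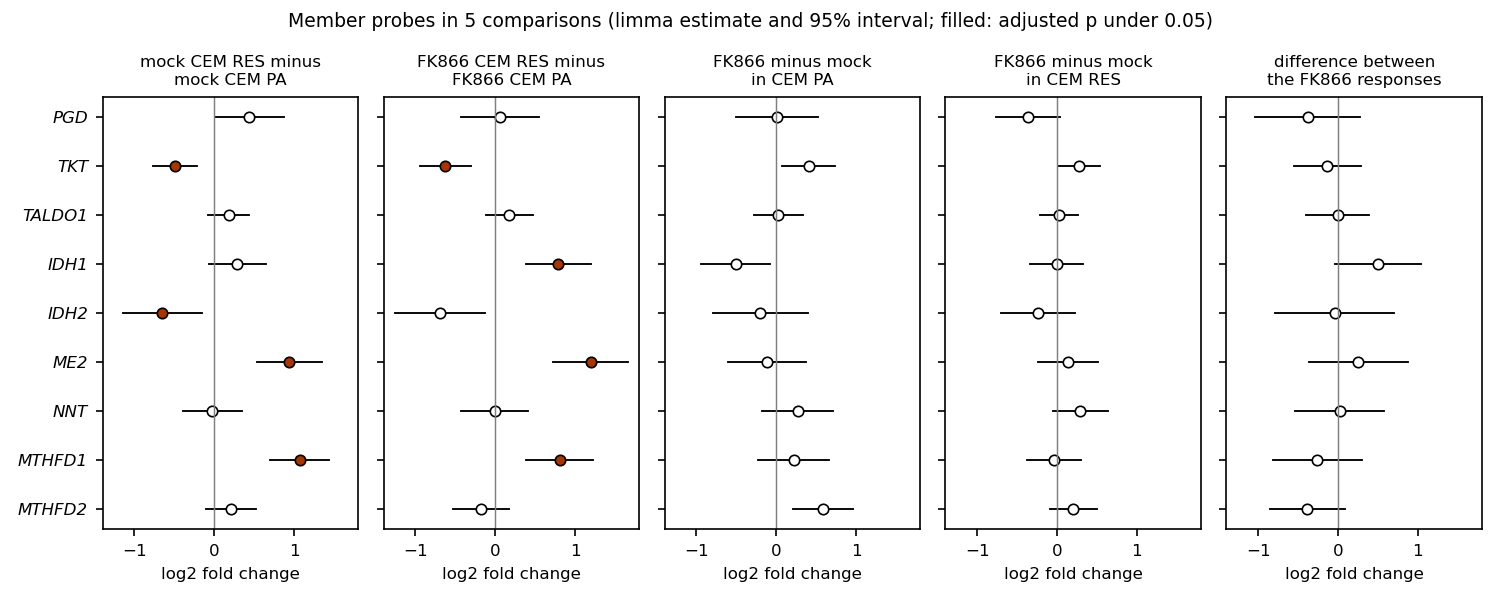
Log2 fold change of each member in the 5 comparisons, as the limma estimate with its 95% interval. Filled points passed an adjusted p of 0.05, which happened for 4 members in each comparison of the lines and for 0 members in the 3 comparisons of drug responses.

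Under FK866 the lines were compared a second time, on other arrays. IDH1, ME2 and MTHFD1 were higher in CEM RES and TKT lower, 4 of 9 members, where 36% of all probes passed the adjusted p of 0.05, 18% in each direction. The 3 higher ones also passed the double threshold, against 15.2% of all probes, and the groups did not overlap in 6 members, against 57.8%. The median of the members was 0.06, the same as that of all probes. Since 2 arrays carry the FK866 group of CEM PA, these values rest on them. MTHFD1 and TKT missed the threshold without its replicate 1, and IDH1 without its replicate 2. Fewer probes of the whole array passed there as well. Over 27 alternatives in processing and arrays the difference ran from 0.69 to 0.89 for MTHFD1, from -0.68 to -0.54 for TKT and from 0.71 to 0.86 for IDH1.

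ME2 reached log2 signals of 11.96 and 11.47 in FK866-treated CEM PA and 12.80, 13.01, 13.11 and 12.74 in CEM RES. The gap between the groups was wider than the spread inside either. The difference was 1.19 (SE 0.21), or 2.29-fold, with an adjusted p of 0.00127 in limma. MTHFD1 was at 13.004 and 13.09 in FK866-treated CEM PA, against 13.62, 14.18, 13.98 and 13.66 in the resistant line. Its resistant arrays spread over 0.57 log2 units, all of them above the parental ones. The difference was 0.81 (SE 0.19), or 1.75-fold, with an adjusted p of 0.0066.

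IDH1, which makes cytosolic NADPH from isocitrate, read 10.13 and 10.02 in FK866-treated CEM PA and 10.67, 10.82, 11.07 and 10.89 in CEM RES. No arrays of the groups overlapped. The difference was 0.79 (SE 0.19), or 1.73-fold, with an adjusted p of 0.00637 in limma. TKT read 16.39 and 16.41 in the parental line and 15.53, 15.83, 15.82 and 15.91 in the resistant one. The parental pair lay above all resistant arrays, with a difference of -0.62 (SE 0.15), or 1.54-fold lower, and an adjusted p of 0.00593.

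Under FK866, IDH2 read 14.38 and 14.13 in the parental line and 13.90, 13.20, 13.71 and 13.47 in the resistant one. These groups did not overlap either. The difference of -0.69 (SE 0.26) had an adjusted p of 0.0541 in limma, just outside the threshold, and it passed in 9 of 27 alternatives, such as 75th percentile scaling (-0.79, adjusted p = 0.0177). PGD differed by 0.06 (95% interval -0.43 to 0.55), TALDO1 by 0.18 (95% interval -0.11 to 0.47), NNT by -0.01 (95% interval -0.43 to 0.41) and MTHFD2 by -0.18 (95% interval -0.53 to 0.18). None of these 4 passed the adjusted p.

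TALDO1 and NNT moved little across the groups. TALDO1 read 14.51, 14.38 and 14.59 in mock CEM PA, 14.51 and 14.52 with FK866, 14.79, 14.63, 14.60 and 14.68 in mock CEM RES and 14.80, 14.65, 14.70 and 14.63 with FK866. Its SD within a group was at most 0.10, and treated and mock arrays overlapped in each line. All CEM RES arrays lay above all CEM PA arrays, with 14.60 as the lowest of the former and 14.59 as the highest of the latter. NNT read 9.37, 8.9996 and 9.48 in mock CEM PA, 9.68 and 9.43 with FK866, 9.42, 8.98, 9.43 and 9.19 in mock CEM RES and 9.47, 9.36, 9.62 and 9.73 with FK866. The highest array of NNT in each line was a treated one, but the groups overlapped, with differences of 0.27 in CEM PA (95% interval -0.17 to 0.71) and 0.29 in CEM RES (95% interval -0.05 to 0.63), and neither passed the adjusted p in limma.

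MTHFD2 read 13.55, 13.92, 13.81 and 13.49 in mock CEM RES and 13.87, 13.85, 14.01 and 13.87 with FK866. One mock array lay among the treated ones. The difference was 0.21 (95% interval -0.09 to 0.50). IDH1 read 10.63, 10.77, 11.19 and 10.88 in mock CEM RES and 10.67, 10.82, 11.07 and 10.89 with FK866, the treated range lying within the mock one, with a difference of -0.00 (95% interval -0.34 to 0.33).

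The order of the group means differed between members. For TKT it ran from mock CEM RES (15.50) through FK866-treated CEM RES (15.77) and mock CEM PA (15.99) to FK866-treated CEM PA (16.40). The neighbours inside CEM RES overlapped by 1 array, and the highest FK866-treated CEM RES array, at 15.91, lay just under the lowest mock CEM PA array, at 15.93. For ME2 the order was FK866-treated CEM PA (11.72), mock CEM PA (11.83), mock CEM RES (12.78) and FK866-treated CEM RES (12.91), with overlap inside each line and none between the lines. MTHFD1 ran from mock CEM PA (12.83) and FK866-treated CEM PA (13.05) to FK866-treated CEM RES (13.86) and mock CEM RES (13.90), again with overlap inside the lines only.

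The response of CEM PA to FK866 asks how these genes differ between treated and mock cultures of sensitive cells. The paper reports that the drug strongly lowered ATP in parental cells, and it proposes toxic effects there. Whether a difference comes from NAMPT inhibition itself, from toxicity or from a changed mix of surviving cells was not tested. No member passed the adjusted p in limma, where 1.53% of all probes did, and 3 of 9 passed an unadjusted p of 0.05, against 14.4% of all probes. The groups did not overlap for these 3, MTHFD2, TKT and IDH1, against 34.8% of all probes, which is a weak criterion with 2 arrays against 3. The median of the members was 0.02 and that of all probes -0.00. With the replicate number as a block, 1218 probes passed in place of 347, and still no member did, MTHFD2 and IDH1 coming nearest with adjusted p values of 0.0562 and 0.0611.

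MTHFD2, which feeds formate from mitochondria into cytosolic nucleotide synthesis, read 13.40, 13.40 and 13.66 in mock CEM PA and 13.99 and 14.16 under FK866. Both treated arrays lay above all mock arrays. The difference was 0.59 (SE 0.17, 95% interval 0.21 to 0.96), with an unadjusted p of 0.00506 and an adjusted p of 0.123 in limma. It was 0.59 within the first scan session and 0.63 within the second. It passed the threshold in 2 of 27 alternatives, with normexp background correction (0.58, adjusted p = 0.0499) and with array quality weights (0.63, adjusted p = 0.0198), and over all 27 the adjusted p ran from 0.0198 to 0.738.

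TKT went from 16.10, 15.95 and 15.93 in mock CEM PA to 16.39 and 16.41 under FK866. The difference was 0.41 (SE 0.15, adjusted p = 0.241 in limma), and it was 0.29 and 0.47 within the sessions. IDH1 read 10.81, 10.44 and 10.48 in mock CEM PA and 10.13 and 10.02 under FK866. Here both treated arrays lay below the mock arrays, with a difference of -0.51 (SE 0.20, adjusted p = 0.257), of -0.68 within the first session and -0.44 within the second. PGD read 13.24 and 12.995 under FK866, inside the range of its mock arrays. The other 6 members, PGD included, ranged from -0.20 for IDH2 to 0.27 for NNT, with groups that overlapped.

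In CEM RES the 9 members ranged from -0.37 for PGD to 0.29 for NNT after FK866. No member passed the adjusted p in limma and no probe of the array did (0% of 22754). An unadjusted p under 0.05 was found for 1 member, TKT, and for 5.15% of all probes, and the groups overlapped for all 9 members, with 2.91% of all probes free of overlap. Within the 4 pairs of arrays that share a replicate number, the difference had one sign throughout for 4 of 9 members, lower after FK866 for PGD and IDH2 and higher for TKT and NNT, against 19.7% of all probes. With the replicate number as a block their adjusted p values were 0.405 for PGD, 0.464 for IDH2, 0.413 for TKT and 0.418 for NNT. The median of the members was 0.02 and that of all probes -0.02.

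TKT read 15.46, 15.47, 15.59 and 15.48 in mock CEM RES and 15.53, 15.83, 15.82 and 15.91 under FK866. The lowest treated array, replicate 1, lay inside the mock range. The difference was 0.27 (SE 0.12, unadjusted p = 0.0399, adjusted p = 0.938 in limma), and it was 0.41 within slide 5 and 0.14 within slide 6. PGD read 13.39, 13.49, 13.87 and 13.44 in mock CEM RES and 13.01, 13.32, 13.43 and 12.96 under FK866. Its difference of -0.37 (95% interval -0.77 to 0.03) was -0.30 within slide 5 and -0.43 within slide 6.

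**Figure D3:**
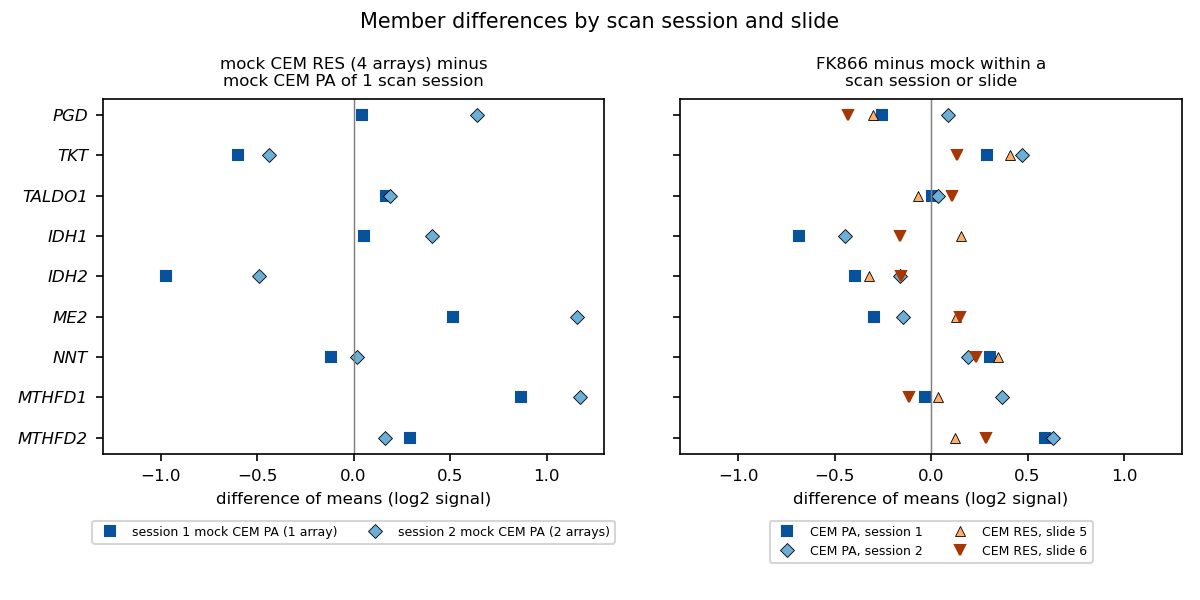
Member differences by scan session and slide, as differences of mean log2 signal. On the left, mock CEM RES, all of the third session, is set against the mock CEM PA arrays of each session. MTHFD1 and ME2 lie to the right of 0 and TKT and IDH2 to the left in both. PGD (0.05 and 0.64), TALDO1, IDH1 and MTHFD2, which were not called, also lie to the right in both, and NNT changes sign (-0.12 and 0.02). On the right, FK866 minus mock within each session of CEM PA and each slide of CEM RES, where MTHFD2 is 0.59 and 0.63 by session and 0.13 and 0.29 by slide.

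Whether the lines respond differently was tested with the interaction of line and drug. No member passed in limma, where 0.413% of all probes did, and none had an unadjusted p under 0.05, against 12.1% of all probes. IDH1 had the largest estimate, 0.50 (95% interval -0.04 to 1.05, adjusted p = 0.446), from -0.51 in CEM PA and -0.00 in CEM RES. For MTHFD2 the estimate was -0.38 (95% interval -0.86 to 0.09), from 0.59 and 0.21. For TKT it was -0.13 (95% interval -0.56 to 0.29), from 0.41 and 0.27. For PGD it was -0.38 with a 95% interval of -1.03 to 0.27, so that intervals of this width do not show equal responses. The comparisons of the lines and of the drug responses share arrays, and their values for a member are not independent of each other. With the replicate block 486 probes passed the interaction in place of 94, and no member among them.

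The replicate spread of the members was uneven. In mock CEM PA, replicate 1, the array of the first session, was the highest of the 3 arrays for 6 of 9 members and the lowest for 0. Between its sessions the mock CEM PA signal of ME2 differed by -0.64 (second minus first), that of PGD by -0.59 and that of IDH2 by -0.48, which is as large as several of the differences between the lines. TALDO1 differed by -0.02. In mock CEM RES, replicate 3 was the highest for 5 of 9 members and replicate 1 the lowest for 5.

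The genes whose profile over the 13 arrays was most like that of MTHFD1, the member with the largest difference between the mock groups, were C1QBP (Pearson r = 0.990), FAM86A (0.989) and INO80B (0.989). Since the lines differ in many genes, 916 of 17597 genes had an r above 0.9 with it, and these values are a description.

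Other enzymes around the members were followed on 4 lists with 21 genes on the array, of which 18 had a probe above the filter. TKTL2, ME1 and ME3 had none. Between the mock groups 6 of the 18 were higher in CEM RES and 3 lower, where 24.9% of all probes were called higher and 22.7% lower, and the median over the lists was 0.13. Under FK866 the counts were 6 and 2, against 18% in either direction, and the median was 0.30. MTHFD2L and ALDH1L2 among the 18 passed the filter only through CEM RES. With the filter set to all arrays, 4 of 16 were higher and 3 lower between the mock groups, against 4996 and 4558 of 18921 probes. The FK866 groups then gave 5 of 16 higher and 2 lower, against 3796 and 3640 probes. No listed gene passed for FK866 against mock in either line.

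The folate enzymes outside the member set made up most of the higher calls. Between the mock groups 5 of 8 were higher and 1 lower, against 24.9% and 22.7% of all probes, with a median of 0.62. Under FK866 4 of 8 were higher, against 18% of all probes, with a median of 0.71. SHMT1 was among the 5 by its brightest probe (0.43, adjusted p = 0.0350 in limma). Its other kept probes, at 0.20, -0.00 and 0.75, missed the threshold (adjusted p = 0.524, 0.995 and 0.0658). Over 27 alternatives 3 to 5 were higher between the mock groups and 2 to 5 under FK866, and with 75th percentile scaling 4 and 5. MTHFD2L and ALDH1L2 were well above background on every CEM RES array but on only 2 of 3 mock and 1 of 2 FK866-treated arrays of CEM PA, and so passed the filter through the line in which they are higher. With the filter set to all arrays, 3 of 6 folate enzymes were higher between the mock groups, against 4996 of 18921 probes, with a median of 0.34. Under FK866 it was 3 of 6, against 3796 of 18921 probes, with a median of 0.65. The median over the 4 lists was then 0.04 between the mock groups and 0.17 under FK866. MTHFD2L, the paralog of MTHFD2, had a mean log2 signal of 3.15 in mock CEM PA and 5.65 in mock CEM RES. Its difference ran from 0.71 with normexp background to 2.93 over the alternatives. ALDH1L2, a mitochondrial enzyme that oxidises formyl tetrahydrofolate with NADP, had 3.69 and 5.38, with a range of 0.58 (normexp) to 2.07 for the difference. Its mock CEM RES arrays spread from 4.58 to 6.33, and under FK866 its difference of 0.67 was not called (adjusted p = 0.242 in limma). ALDH1L1, its cytosolic counterpart, was well above background on all 13 arrays and differed by 1.83 (SE 0.37, adjusted p = 0.00155 in limma), over a range of 1.14 to 2.20.

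The lower call among the folate enzymes was TYMS, the thymidylate synthase, at -0.53 (SE 0.19, adjusted p = 0.0358 in limma), which missed the threshold in 8 of 27 alternatives. Under FK866 ALDH1L1 differed by 1.78 (adjusted p = 0.00598), over a range of 1.11 to 2.08. MTHFD2L had a mean log2 signal of 3.03 in FK866-treated CEM PA and 5.77 in FK866-treated CEM RES, with a range of 0.73 to 3.49 for the difference over the alternatives.

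Of the 3 measured genes of the oxidative branch list, 1 was higher and 1 lower in CEM RES between the mock groups, against 24.9% and 22.7% of all probes. Under FK866 2 were higher and 1 lower, against 18% of all probes in either direction. PGLS, the lactonase that acts between the dehydrogenases of the branch, was higher by 0.54 (adjusted p = 0.00728 in limma) and 0.59 (adjusted p = 0.0132), and is named outside the rule, after its values were seen. H6PD, which makes NADPH from hexose 6-phosphates inside the endoplasmic reticulum, was lower in CEM RES. Its mean log2 signal was 8.04 in mock CEM PA and 5.13 in mock CEM RES, a difference of -2.91 (SE 0.49, adjusted p = 0.000521 in limma), and under FK866 -1.93 (adjusted p = 0.0181). Over the alternatives the difference ran from -3.15 to -1.67 between the mock groups and from -2.24 to -0.98 under FK866, the smallest sizes with normexp background. It was well above background on all 13 arrays. SHPK, which phosphorylates sedoheptulose for the non-oxidative branch, was at -0.42 between the mock groups (adjusted p = 0.0451, past the threshold in only 10 of 27 alternatives) and at -0.86 under FK866 (adjusted p = 0.00319). Without replicate 1 of FK866-treated CEM PA the differences under FK866 missed the threshold for H6PD (adjusted p = 0.122), SHPK (0.0570) and ALDH1L1 (0.0741), and without replicate 2 for H6PD (0.0784). The same list as H6PD held TIGAR, which the array design names C12orf5 and which lowers glycolytic flux in favour of the pentose phosphate pathway. Its mean log2 signal was 8.19 in both mock groups, 7.48 in FK866-treated CEM PA and 8.42 in FK866-treated CEM RES. The response to FK866 was not called in CEM PA (-0.71, adjusted p = 0.155 in limma) or in CEM RES (0.23, adjusted p = 0.971). Nor was the interaction of line and drug (0.94, adjusted p = 0.207). Under FK866 the difference between the lines was 0.94 (SE 0.22, adjusted p = 0.00532), and 0.90 with an adjusted p of 0.0600 without replicate 1 of FK866-treated CEM PA.

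**Figure D4:**
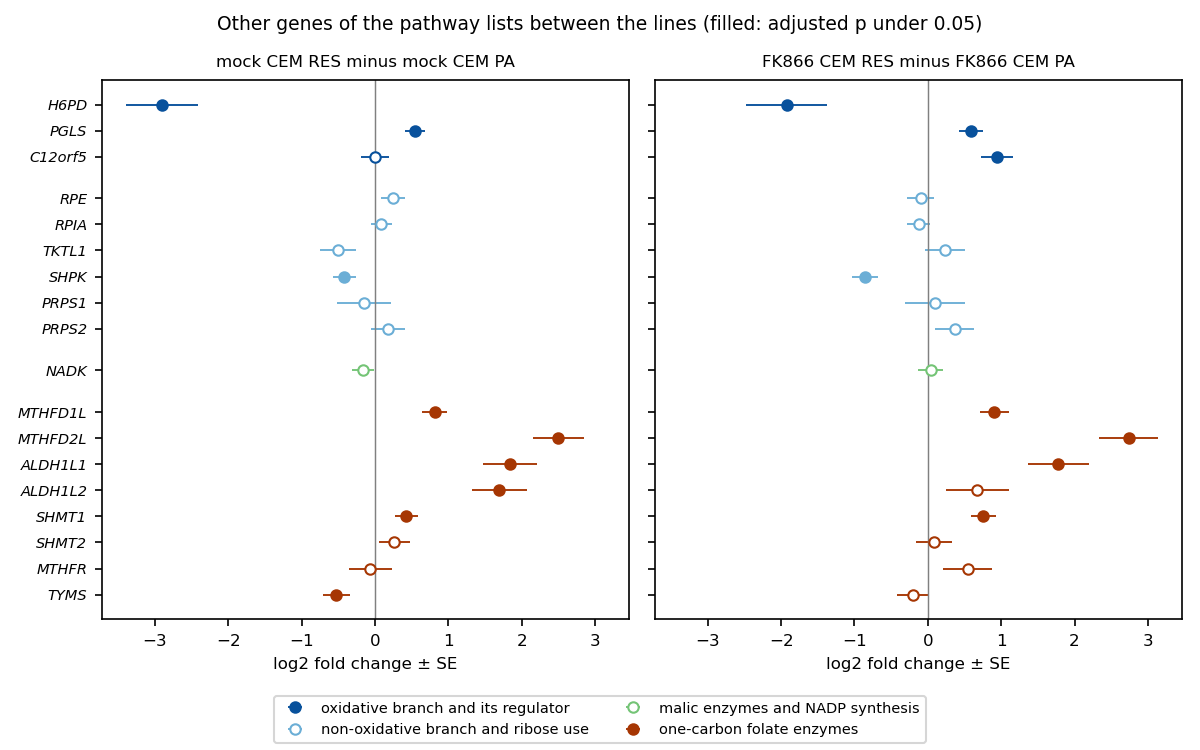
Log2 fold change ± SE between the lines for the 18 measured genes of the 4 lists, with mock groups on the left and FK866 groups on the right. Filled points passed an adjusted p of 0.05 in limma. H6PD lies furthest to the left at -2.91 and -1.93, and the folate enzymes MTHFD2L and ALDH1L1 lie to the right in both panels. MTHFD2L passed the filter only through CEM RES, the line in which it is higher.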

How the data were processed

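RNA of 13 cultures was hybridized to 1-colour Agilent 4x44K v2 arrays. For each array the authors deposited the spot intensity written by Agilent Feature Extraction (version 10.7.7.1 in the submitters' processing notes), background-corrected and detrended within the array. A log2 table of all arrays, quantile normalized, was deposited as well. Its columns share 1 median of 5.37, and on each array it ranked the 34127 probes as the intensities do (Spearman correlation of at least 0.99993).

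The intensities were put on the log2 scale, outlier spots set to missing and control spots removed. Quantile normalization ran over all arrays, after which replicate spots were averaged per probe. A probe was kept when at least 50% of its spots were well above background on every array of 1 group, which left 22754. Every kept probe went into a single limma fit (version 3.58.1, R 4.3.3) with a mean for each of the 4 groups (prior degrees of freedom 3.25). All p values are two-sided and adjusted by Benjamini-Hochberg over these probes, and calls use an adjusted p under 0.05. The code was tested on simulated data. Files were read with Python 3.11.15.

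Replicate numbers were taken to pair the arrays within a line. Deviations from the group mean of same-numbered arrays correlated at 0.46 and 0.353 in CEM PA and at 0.199 to 0.474 in CEM RES. Pairs on the same slide gave 0.46 (CEM PA 1), 0.388 (CEM RES 2) and 0.474 (CEM RES 3). Those on different slides gave 0.353 (CEM PA 2), 0.199 (CEM RES 1) and 0.29 (CEM RES 4). Differently numbered arrays were not set beside them, so shared culture and shared slide cannot be told apart. The 2 FK866 arrays of CEM PA deviate by equal and opposite amounts by construction. Alternatives covered scaling, background, filter, outlier spots, choice of probe, the deposited table, groups in the fit, slide, scan session, replicate block, array weights, intensity trend and leaving out each array. For the listed pathway genes they were added after the values were seen. Arrays give no counts, so their number limits the precision, and p values measure the spread between these cultures.

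The members and lists were chosen with earlier results of these data known. Named are all members, and of the lists up to 3 genes a direction and comparison, by size among those past the adjusted p. Where a listed gene had several probes, the brightest kept one stands for it, and this choice decides some calls. NADK was not called between the mock groups by that probe (-0.16, adjusted p = 0.387 in limma). Its other kept probes were at 0.79 (adjusted p = 0.00599) and 0.19 (adjusted p = 0.374). NADK and SHMT1 are named for their probes, outside the rule and after their values were seen. TIGAR was found as C12orf5, and NADK2 and LYZ were not matched by name. Some listed genes are not reported here and were left out of the counts.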

Additional observations from a re-analysis of the deposited data

Results flagged for a closer look

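Among the 18 sets of 4 CEM RES arrays, 9 members in each of 2 groups, 2 held an array further from the rest than Dixon's 95% limit for 4 values allows. Chance alone gives such a gap in about 1 of 20 sets. MTHFD2 read 14.01 in FK866-treated CEM RES replicate 3, with the other 3 arrays between 13.85 and 13.87, so that the gap is large only beside a very narrow group. IDH2 read 13.32 in mock CEM RES replicate 2, with the other 3 between 13.91 and 14.01. Without that array IDH2 differed between the mock groups by -0.49 with an adjusted p of 0.0842 in limma.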

How the results depend on the processing

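ME2 and MTHFD1 were higher in mock CEM RES than in mock CEM PA past the threshold in all 27 alternatives, over a range of 0.79 to 1.16 and 0.97 to 1.17. Several of these, such as another filter or a left-out FK866 array, hardly bear on the mock groups. None can separate line from scan session, since the lines share no session. The count of members past the adjusted p for FK866 in CEM PA was 1 of 9 in place of 0 with normexp background and with array quality weights, MTHFD2 both times. Of all 22754 probes 566 passed with normexp and 1832 with the weights. Between the FK866 groups it ran from 2 to 5 when 1 array was left out. With 75th percentile scaling the median of all probes between the FK866 groups moved to 0.20, with 5321 calls higher and 3608 lower against 4099 and 4087. For FK866 against mock in CEM PA the number of probes called went from 347 to between 3 (only the compared groups) and 1832 (array quality weights), with 7 under the slide block, and for the interaction from 94 to between 7 (mean of a gene's probes) and 486 (replicate block). Leaving out 1 array gave 47 (FK866 CEM PA replicate 1) to 384 probes in CEM PA and 27 (the same array) to 140 in the interaction. The replicate block changed no member's call.

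No member past the threshold changed sign. Values that crossed 0, none past the threshold on either side, follow. With 75th percentile scaling, IDH1 in CEM RES was 0.0067 (FK866 minus mock), TALDO1 in CEM RES -0.043, and NNT and PGD between the FK866 groups 0.0098 and -0.058. With array quality weights, ME2 in CEM PA was 0.075, NNT 0.099 between the mock groups and -0.12 in the interaction. With the deposited table, IDH1 in CEM RES was 0.03 and TALDO1 in the interaction 0.019. With normexp, NNT was 0.039 between the mock groups and -0.068 in the interaction, and TALDO1 in CEM RES -0.023. With outlier spots kept, IDH1 in CEM RES was 0.0085 and NNT between the FK866 groups 0.0065. With the replicate block, IDH2 and NNT in the interaction were 0.13 and -0.075 and PGD in CEM PA -0.14. With the scan session block, IDH2 in the interaction was 0.022 and PGD in CEM PA -0.061. With the slide block, the interaction was 0.15 for IDH2, -0.014 for NNT and 0.013 for TALDO1, and in CEM PA MTHFD1 was -0.029 and PGD -0.26.

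When 1 array was left out, the response in CEM RES ran from -0.083 to 0.10 for IDH1, from -0.15 to 0.042 for MTHFD1 and from -0.014 to 0.056 for TALDO1. In CEM PA it ran from -0.36 to 0.13 for ME2, from -0.14 to 0.21 for PGD and from -0.031 to 0.074 for TALDO1. The interaction ran from -0.20 to 0.14 for IDH2, from -0.11 to 0.16 for NNT and from -0.054 to 0.051 for TALDO1. Between the FK866 groups NNT ran from -0.13 to 0.12 and PGD from -0.066 to 0.18, and between the mock groups NNT ran from -0.17 to 0.068. The cause of these changes was not tested. A left-out array of the FK866 group of CEM PA leaves 1 array there, which is assumed to vary like the others. Signal over background limits the dim probes, MTHFD2L and ALDH1L2 among them.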
